A study of Homo sapiens with 54 samples.

Results

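The Notch pathway genes HES1, HES4, HES5, HES6, HEY1, HEY2, HEYL, DLL1, DLL3 and NOTCH1 were followed through every condition of an RNA-seq study of dopamine in hMSN-like cells, that is, neurons of a striatal kind made in culture from H9, an established line of human embryonic stem cells. The members were chosen by name, as the rows with these symbols in each library, and all 10 were found among the 60676 genes of each table. The levels below are TPM (exon reads per exon length, scaled to the same sum in each library), and the tests used exon reads.

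In the dopamine experiments, PBS libraries were the control, a single dose was followed by RNA collection 1 h or 24 h later (Acute 1 h and Acute 24 h), and daily doses over 5 days were followed likewise after the last (Chronic 1 h and Chronic 24 h). This was done at 1 mM and at 1 µM, each with its own PBS libraries. In the time course, cultures received 1 mM dopamine daily for 2, 3, 4 or 5 days (2 Day, 3 Day, 4 Day and 5 Day). They were taken 1 h after the last dose, and the controls received ascorbic acid (AA). By the paper's methods, the doses were timed so that all these cultures were taken at the same age. In the agonist experiment, cultures received 50 µM SKF82958, an agonist of D1-like receptors, 50 µM quinpirole, an agonist of D2-like receptors, or water. Each group held 3 libraries, except 5 Day with 2, which makes 53 libraries in 18 groups. Dopamine was dissolved with ascorbic acid while the controls of the 1 mM and 1 µM experiments were labelled PBS, and acute and chronic cultures were taken at different ages, so these differences cannot be told apart from those of dopamine and of repeated dosing. All cells came from a single line, and the cultures were mixed: the neuron markers MAP2 and STMN2 had medians of 476.8 and 1259 TPM in the 12 control libraries, the striatal markers PPP1R1B and BCL11B 22.7 and 56.1, DRD1 and DRD2 1.61 and 4.26, the progenitor markers SOX2, NES and MKI67 559.5, 389 and 88.8, and the astrocyte marker GFAP 13.4. The endothelial markers PECAM1 and CDH5 were near 0, at no more than 0.193 and 0.172 TPM in a control library.

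Notch signalling passes between touching cells. The ligands, such as DLL1, bind the receptor NOTCH1 on a neighbouring cell, the receptor is cut inside the membrane, and its freed intracellular part joins the DNA-binding protein RBPJ and switches on genes of the HES and HEY families. These genes encode basic helix-loop-helix repressors that hold down proneural genes such as NEUROG2, and in the developing brain the pathway is known for keeping part of the cells as progenitors while their neighbours become neurons. HES6 is the exception among the HES genes, since it counteracts HES1 and is itself raised by proneural factors, and DLL3 is an unusual ligand that acts mostly inside the cell that makes it.

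Many of the sites that RBPJ is known to bind contain the letters TGGGAA. The promoters are shown because several of the repressors carry the longer form GTGGGAA close to their start. RefSeq promoters (GRCh38.p14, from 250 bases before the start to 50 after) were at hand for 7 of the 10 members, all but HEY1, DLL1 and DLL3. The 250 bases before the start of HES1 (chr3:194135898-194136147, plus strand) and HES5 (chr1:2530264-2530513, minus strand) were as follows, 5′ to 3′ on the strand of the gene, with each TGGGAA or GTGGGAA in capitals on either strand.
HES1: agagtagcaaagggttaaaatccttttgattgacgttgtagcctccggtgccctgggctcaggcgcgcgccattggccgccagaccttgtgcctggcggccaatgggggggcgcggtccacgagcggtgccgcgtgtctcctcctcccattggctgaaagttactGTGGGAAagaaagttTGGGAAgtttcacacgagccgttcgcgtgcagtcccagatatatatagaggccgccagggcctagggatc
HES5: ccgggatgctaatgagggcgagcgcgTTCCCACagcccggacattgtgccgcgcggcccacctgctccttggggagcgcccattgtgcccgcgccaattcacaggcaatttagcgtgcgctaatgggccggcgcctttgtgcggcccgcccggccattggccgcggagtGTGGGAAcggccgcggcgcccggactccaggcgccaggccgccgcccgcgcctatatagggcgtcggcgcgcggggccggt

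In the 300-base windows, GTGGGAA was found on either strand in 5 of the 7 members with a promoter (HES1, HES4, HES5, HEY2 and HEYL, but not HES6 or NOTCH1), and in 6.25% of all 35116 RefSeq promoters of that length. TGGGAA, which every GTGGGAA contains, was found in the same 5 members and in 24.0% of all promoters. The letters CACNAG, the N-box to which HES proteins are known to bind, were in the windows of HES1 and NOTCH1 and in 38.0% of all promoters, while the palindromes CACGTG (7.26% of all) and TGACGTCA (1.85%), a cyclic AMP response element, were in none of the 7. A match is a run of letters and not a measured site. The GTGGGAA runs are set side by side below with 10 bases on each side, read 5′ to 3′ on the strand that holds GTGGGAA and with those letters in capitals.
HES1: gaaagttactGTGGGAAagaaagtttg
HES4: tggggcgagtGTGGGAAagaatgcgga
HES5: gccgcggagtGTGGGAAcggccgcggc
HEY2: gagttgcggcGTGGGAAagagccgcta
HEYL: ccgccgagccGTGGGAAggccctaggc

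These 27-base stretches were at chr3:194136053-194136079, plus strand (HES1), chr1:1000158-1000184, minus strand (HES4), chr1:2530328-2530354, minus strand (HES5), chr6:125749618-125749644, plus strand (HEY2) and chr1:39639805-39639831, plus strand (HEYL, a gene of the minus strand). Counted from the RefSeq start, the GTGGGAA began at -85 in HES1, -77 in HES4 and -81 in HES5, so that the 3 HES genes carried it on their own strand at a similar distance, while in HEY2 it began at -4 and in HEYL at -178 on the opposite strand. HES5 and HEY2 held a second copy on the opposite strand, which began at -224 and -213. In the annotation of the files (Ensembl on GRCh38), the members lay at chr3:194136148-194138732 (HES1), chr1:998962-1000172 (HES4), chr1:2528745-2530263 (HES5), chr2:238238267-238240662 (HES6), chr8:79764010-79767857 (HEY1), chr6:125747664-125761269 (HEY2), chr1:39623435-39639643 (HEYL), chr6:170282206-170306565 (DLL1), chr19:39498895-39508481 (DLL3) and chr9:136494433-136546048 (NOTCH1). By that annotation the HEY2 stretch lay inside the gene and the HES4 stretch spanned its start. The distances of these 2 genes therefore hold for the RefSeq start only.

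Without dopamine, all members but HEYL were well detected. In the 12 control libraries the median level ran from HES6 (248 TPM) and HES4 (218 TPM) through HES1 (127 TPM), NOTCH1 (68.8 TPM), HEY1 (63.2 TPM), HES5 (51.2 TPM), DLL1 (41.7 TPM) and DLL3 (31.2 TPM) to HEY2 (12.2 TPM) and HEYL (0.494 TPM). Neighbours in this order were often not apart: HES6 was above HES4 in 8 of the 12 libraries, NOTCH1 above HEY1 in 9, HES5 above DLL1 in 9 and DLL1 above DLL3 in 9. HEY2 was below DLL3 and above HEYL in all 12. HEYL was listed with 0 to 17 exon reads per library and at most 1.46 TPM, and it was too low to be tested at 1 mM and in the agonist experiment. The controls differed between experiments. HES5 lay between 76.7 and 86.2 TPM in the 1 mM PBS libraries, between 40.8 and 56.4 in AA and between 12.9 and 16.4 in water, and HES6 between 414 and 450.4 in 1 mM PBS and between 49.9 and 260.0 in 1 µM PBS. All tests below therefore set a group against the control of its own experiment.

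**Figure D1:**
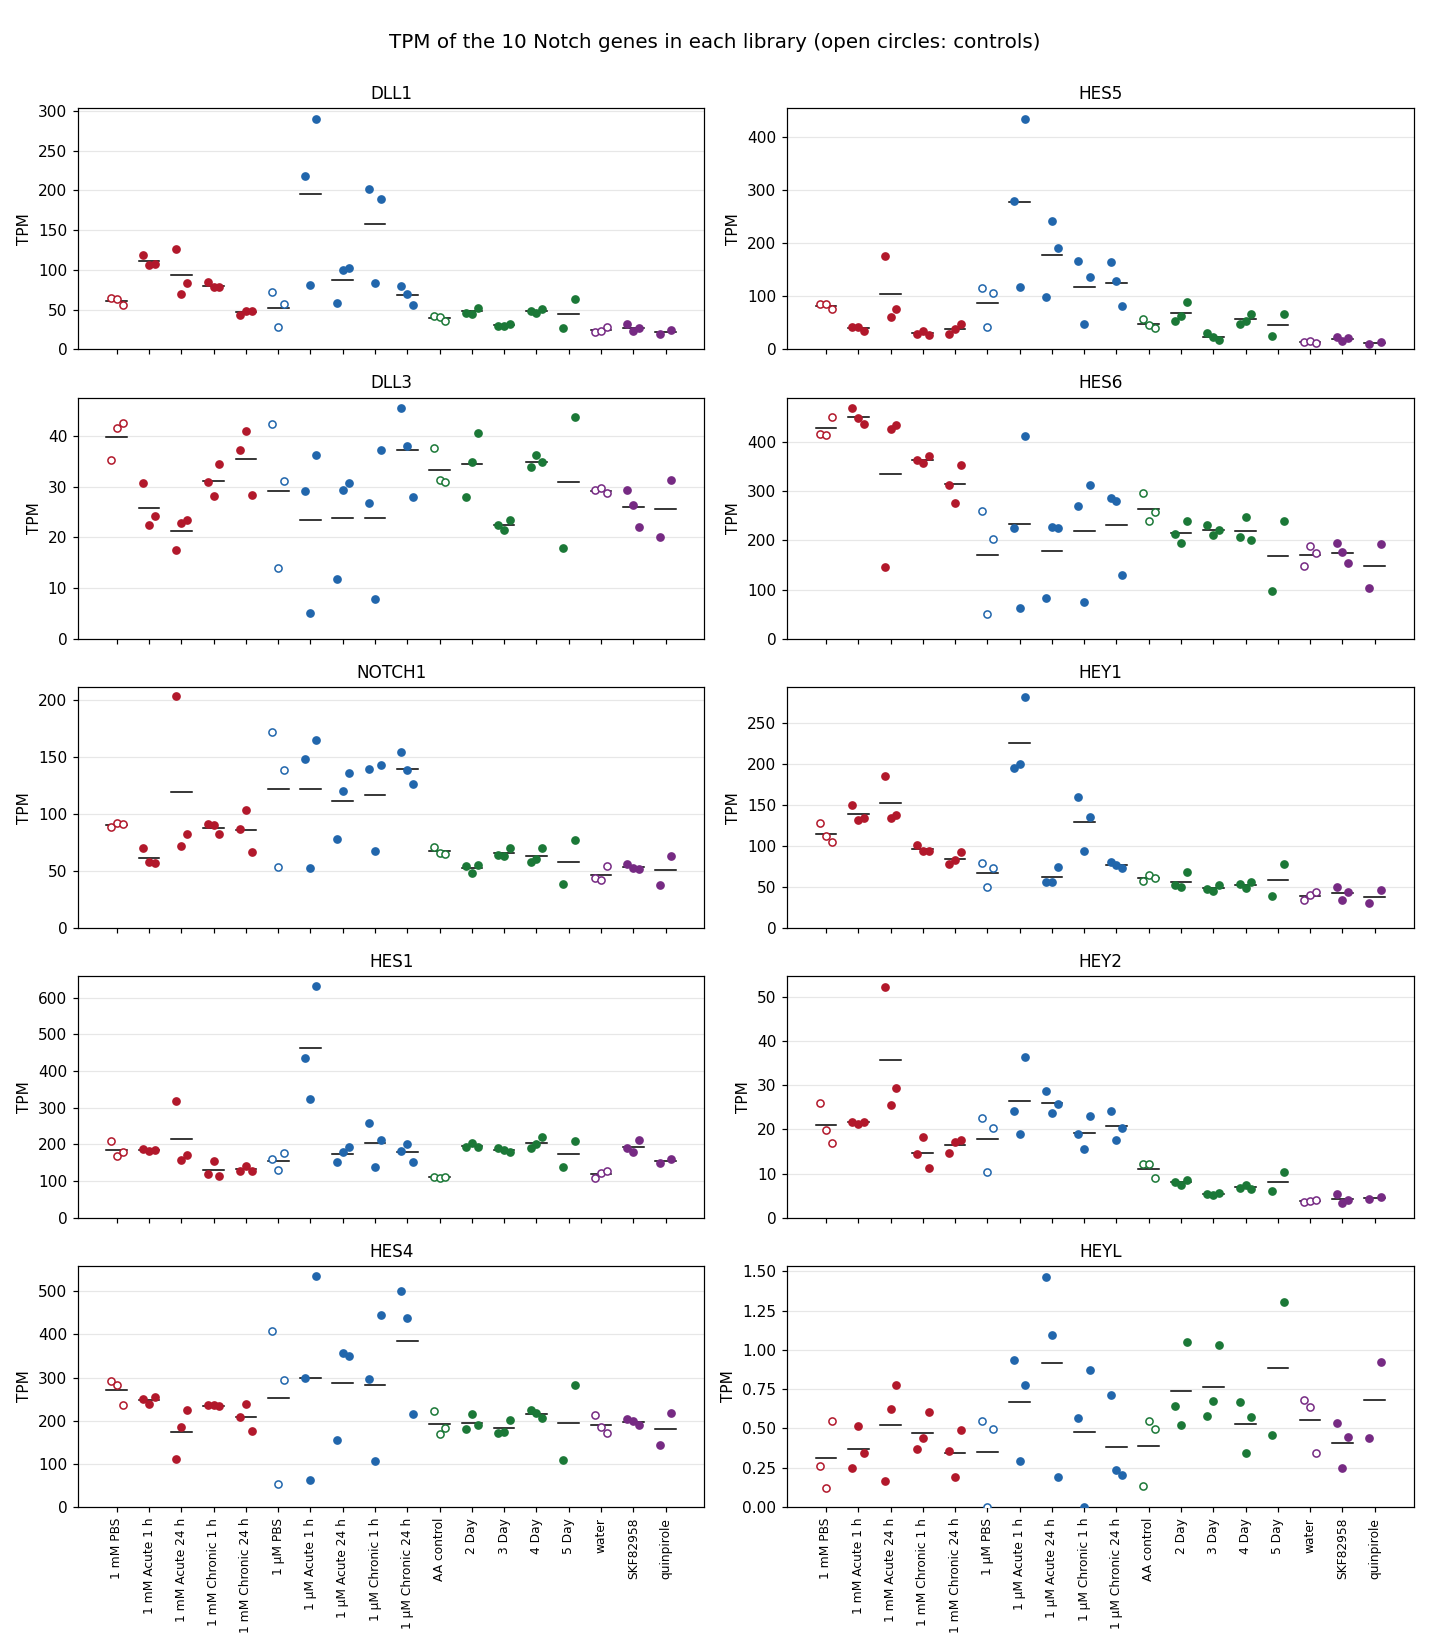
Level of the 10 genes in TPM (vertical axes, each from 0) in every library but the first quinpirole library, by group; open circles are control libraries, filled circles treated libraries, and the black bar is the group mean. HES1 lay between 322 and 631 TPM in the 1 µM Acute 1 h libraries and at 318 TPM or below in all others plotted, while HES4 and HES6 spread widely within the 1 µM groups.

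Several libraries stood apart from their groups. The first quinpirole library held 137051 exon reads with 96.7% of its gene reads in introns, against 5755919 to 27702963 exon reads and 12.3% to 31.2% in the other 52, and 8 of the 10 members had no exon read in it, all but HES1 (4 reads) and HEY1 (9 reads). The first 1 mM Acute 24 h library had EGR1 at 695.5 TPM against 27.8 and 25.8 in the other two, and HES6 at 145 TPM against 426 and 434.5. In the second libraries of 1 µM PBS, Acute 1 h and Chronic 1 h, expression fell with the GC content of genes, by 0.328, 0.609 and 0.264 on the log2 scale per 10 percentage points of GC relative to the mean of the experiment. That matters here because most members are rich in GC: HES4 had 73.9%, HES6 68.4%, HES5 66.5%, DLL3 64.9%, NOTCH1 63.3% and DLL1 59.5%, whereas HES1 (50.0%), HEY2 (47.0%) and HEY1 (45.0%) were close to the median of 48.7% over protein-coding genes. HES4 was at 54.2, 61.9 and 106 TPM in these 3 libraries and between 294 and 535 TPM in the other 6 of their groups. Member calls that changed without these libraries are given beside the results.

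**Figure D2:**
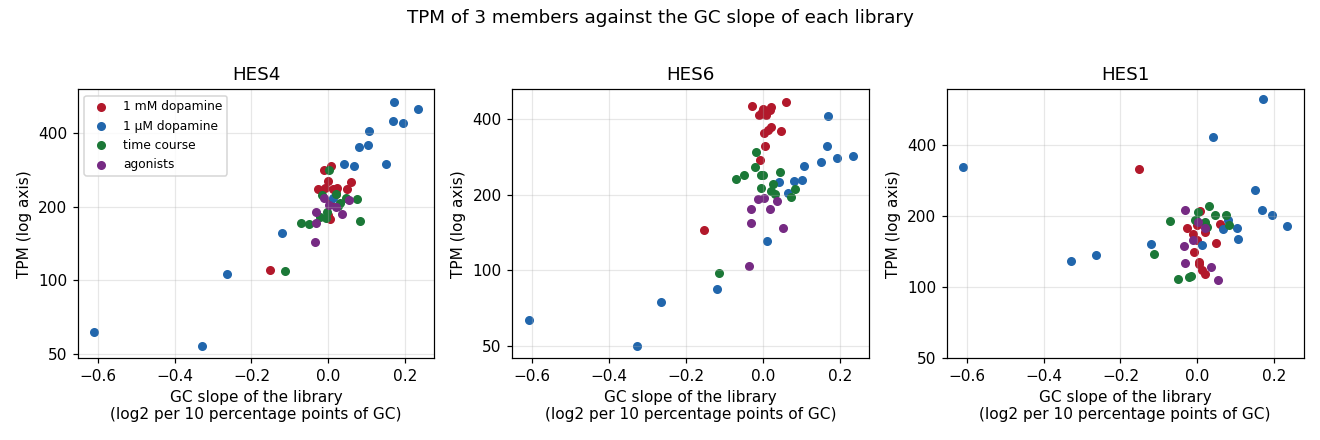
Level of HES4, HES6 and HES1 (TPM, log axis) against the GC slope of each library (log2 change of expression per 10 percentage points of GC, relative to the mean of its experiment); each point is a library, coloured by experiment, without the first quinpirole library. The GC-rich genes HES4 and HES6 were lowest in the 1 µM libraries with the most negative slopes, while HES1 was not.

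An hour after a single dose of 1 µM dopamine, the repressor genes HES1, HES5 and HEY1 and the ligand gene DLL1 all rose, by 2.96-fold to 3.76-fold, and no member fell. HES1 was at 159.5, 128.5 and 176 TPM in the PBS libraries and at 435, 322 and 631 TPM in Acute 1 h, a 2.96-fold rise (log2 fold change 1.57, SE 0.17, edgeR adjusted p = 8.86e-05). HEY1 went from 79.7, 50.6 and 73.0 TPM to 195, 200.2 and 282 TPM, which was 3.40-fold (log2 1.77, SE 0.14, adjusted p = 7.55e-06). For both genes the lowest treated library was well above the highest control. DLL1 was at 71.7, 28.3 and 56.9 TPM in PBS and at 217.5, 80.5 and 290 TPM in Acute 1 h, 3.76-fold higher (log2 1.91, SE 0.33, adjusted p = 0.00325). HES5, a classical Notch target of neural progenitors, was at 115.5, 41.7 and 106 TPM in PBS and at 280.3, 118 and 433 TPM in Acute 1 h, 3.19-fold higher (log2 1.67, SE 0.42, adjusted p = 0.0304). Here the second library was the lowest of both groups, and the treated libraries were above the controls by a small margin only. In bulk RNA, a change in the share of cells that express a gene and a change in RNA per cell cannot be told apart.

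These 4 were 4 of the 10 members, where 3.25% of all 16541 genes tested rose and 2.52% fell, and all 4 also met the rule the study used for DEGs (adjusted p below 0.05, at least 2-fold, and at least 1 TPM in a group), which 2.41% of genes met. The other 6 did not pass: HEY2 had a log2 fold change of 0.61 (adjusted p = 0.127), HES6 0.47 (0.713), HES4 0.28 (0.859), NOTCH1 0.04 (0.964) and DLL3 -0.32 (0.801), and HEYL, at 0.347 ± 0.302 TPM in PBS and 0.671 ± 0.334 in Acute 1 h (SD, n = 3), had overlapping groups (adjusted p = 0.693 by edgeR). When the 3 libraries with the steepest GC slopes were left out, the same 4 rose and by a like amount (log2 1.71 for HES1, 1.69 for HEY1, 2.03 for DLL1 and 1.73 for HES5), in a fit in which 5.57% of genes rose and 5.70% fell; this fit leaves 2 libraries in 3 of the groups. In a fit of only these 2 groups, DLL1 (adjusted p = 0.0989) and HES5 (0.162) did not pass. The call of HES5 was also lost when reads over whole genes replaced exon reads (adjusted p = 0.101) and when any of 7 of the 15 libraries was left out, each PBS library among them (adjusted p up to 0.105).

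After 24 h at 1 µM, the rises of HES1 and HEY1 were no longer found, while HES5 and DLL1 stayed above PBS in estimate without passing. No member passed against PBS at Acute 24 h by edgeR or by DESeq2, where 1.40% of genes rose and 1.91% fell; at an unadjusted p below 0.05, 3 members were higher (HES5, HEY2 and DLL1). HES1 was at 152, 178 and 192 TPM and HEY1 at 56.4, 56.9 and 74.7 TPM, within or near the control range. The log2 fold change was 1.01 for HES5 (SE 0.41, adjusted p = 0.23) and 0.72 for DLL1 (SE 0.32, adjusted p = 0.27). Without the 3 libraries of steep GC slope DLL1 passed (log2 0.53, adjusted p = 0.0498) and so did NOTCH1, lower (log2 -0.39, adjusted p = 0.0467), where 5.52% of genes rose and 5.88% fell. An edgeR fit with the GC slope of each library as a covariate was added after seeing the data. In it HES5 (log2 0.87, adjusted p = 0.000835) and DLL1 (log2 0.61, adjusted p = 3.54e-05) were higher and DLL3 lower (log2 -0.51, adjusted p = 0.045), where 9.97% of genes rose and 9.44% fell.

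After 5 daily doses of 1 µM, HEY1 and DLL1 passed at 1 h. HEY1 was at 159, 94.2 and 136 TPM, 1.98-fold above PBS (log2 0.98, SE 0.14, adjusted p = 0.00231), and DLL1 at 201, 83.9 and 189 TPM, 3.14-fold above it (log2 1.65, SE 0.33, adjusted p = 0.0155). Both groups were apart from PBS in every library. HES1 (259, 137 and 213 TPM, log2 0.41, adjusted p = 0.251) and HES5 (log2 0.46, adjusted p = 0.693) did not pass. These 2 of 10 compare with 1.75% of all genes that rose and 0.834% that fell, and DLL1 met the DEG rule, as 1.11% of genes did. The call of DLL1 was lost without the second or the third PBS library or the first or the third Chronic 1 h library, with adjusted p up to 0.0846, and in a fit of only the 2 groups compared (0.0794), as was that of HEY1 (0.0536). Without the 3 libraries of steep GC slope HES1 passed as well (log2 0.56, adjusted p = 0.0394), where 4.05% of genes rose and 3.16% fell. Set directly against Acute 1 h, Chronic 1 h had HES1 at 0.449 of its level (log2 -1.16, SE 0.17, adjusted p = 0.00435) and HEY1 at 0.581 of its level (log2 -0.78, SE 0.14, adjusted p = 0.0128; up to 0.1 without the third Acute 1 h or the second or the third Chronic 1 h library), where 0.647% of genes fell and 0.556% rose. Neither passed with reads over whole genes (adjusted p = 0.101 for HES1 and 0.201 for HEY1) or in a fit of only these 2 groups (0.33 and 0.425). Without the 3 libraries of steep GC slope, HES5 was lower as well (log2 -1.21, adjusted p = 0.0304), where 2.27% of genes fell and 1.95% rose. DLL1 did not differ beyond its error between them (log2 -0.26, adjusted p = 0.796). At Chronic 24 h, none of the 10 members and none of the 16541 genes passed (0.00%), and no member had an unadjusted p below 0.05.

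At 1 mM, members changed in both directions. An hour after a single dose, DLL1 and HEY1 rose and HES5 fell, while HES1 was not changed beyond its error. DLL1 was at 64.2, 62.9 and 55.4 TPM in PBS and at 119, 105.5 and 107 TPM in Acute 1 h (1.90-fold, log2 0.93, SE 0.13, adjusted p = 0.000883). HES5 went the other way, from 86.2, 85.2 and 76.7 TPM to 42.7, 42.4 and 34.1 TPM (0.503 of the PBS level, log2 -0.99, SE 0.28, adjusted p = 0.0278). HEY1 was at 128, 112 and 106 TPM in PBS and at 149.9, 131 and 135 TPM in Acute 1 h, a 1.26-fold rise (log2 0.33, SE 0.10, adjusted p = 0.0362). In all 3 genes the groups did not overlap, nor did they in DLL3 and NOTCH1, which did not pass. HES1 was at 209.8, 168 and 178 TPM in PBS and at 186, 182 and 184 TPM in Acute 1 h (log2 0.05, SE 0.18, adjusted p = 0.872). These are 2 of 9 members higher and 1 of 9 lower, where 8.04% of the 17804 genes tested rose and 7.94% fell, and none of them met the DEG rule (4.10% of genes). The calls of HES5 and HEY1 depended on single libraries: HES5 was lost when any PBS or Acute 1 h library was left out (adjusted p up to 0.106) or reads over whole genes were used (0.0553), and HEY1 without any of 8 of the 15, in every group but Acute 24 h (up to 0.152), or with no filter on low counts (0.0785).

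A day after a single dose of 1 mM, DLL1 was higher and HES4 and DLL3 were lower. DLL3 was at 35.2, 41.6 and 42.6 TPM in PBS, at 30.6, 22.4 and 24.1 TPM in Acute 1 h and at 17.4, 22.9 and 23.4 TPM in Acute 24 h, where it was at 0.498 of the PBS level (SE of the log2 fold change 0.19, adjusted p = 0.00757) and the only member to meet the DEG rule (3.70% of genes). DLL1 was at 127, 69.9 and 83 TPM (1.39-fold, log2 0.47, SE 0.13, adjusted p = 0.032). HES4 was at 293, 283 and 236 TPM in PBS and at 110.4, 185 and 224 TPM in Acute 24 h (log2 -0.73, SE 0.22, adjusted p = 0.0409). Its lowest value came from the library that stood apart, and the call was kept without that library but lost without any of 10 others (adjusted p up to 0.119), as that of DLL1 was without any PBS library or the third Acute 1 h library (up to 0.107). In a fit of only these 2 groups none of the 3 passed (adjusted p = 0.261 for HES4, 0.242 for DLL1 and 0.112 for DLL3). Over all genes, 8.38% rose and 7.09% fell, and beside the members the neuron markers STMN2, RBFOX3 and SYT1 fell here, with the summed level of the 6 neuron markers between 1686 and 3272 TPM against 3552 to 4088 in PBS. Whether that bears on HES4 and DLL3 was not tested.

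After 5 daily doses of 1 mM, HES5 passed at Chronic 1 h and HEY1 at Chronic 24 h in the fit of all groups, and both were lower. HES5 was at 28.7, 34.4 and 27.4 TPM in Chronic 1 h, 0.354 of the PBS level (log2 -1.50, SE 0.28, adjusted p = 0.0177), and at 28.2, 38.7 and 47.7 TPM in Chronic 24 h, where it did not pass (log2 -1.14, SE 0.28, adjusted p = 0.0985). All 6 chronic libraries were below all 3 PBS libraries. HES5 did pass at Chronic 24 h by DESeq2 (adjusted p = 0.00904). In edgeR fits of only the 2 groups compared, HES1, HES5, HES6 and HEY1 were lower at Chronic 24 h (1.14% of genes fell and 0.307% rose). At Chronic 1 h, all members tested but NOTCH1 passed in such a fit, DLL1 higher and the others lower (12.7% of genes each way). HEY1 was at 78, 83 and 92.5 TPM in Chronic 24 h, 0.719 of the PBS level (log2 -0.48, SE 0.10, adjusted p = 0.0468). Over all genes, 1.27% rose and 0.814% fell in Chronic 1 h, where HES5 met the DEG rule with 0.820% of genes, and 0.118% rose and 0.545% fell in Chronic 24 h. The HEY1 call was lost when any of 13 of the 15 libraries was left out, all but the third PBS and the first Acute 24 h library (adjusted p up to 0.263), and the HES5 call without either of the first 2 PBS libraries or any Chronic 1 h library (up to 0.0806). Set against Acute 1 h, Chronic 1 h was lower for HES1 (118, 154.5 and 114 TPM, log2 -0.62, SE 0.18, adjusted p = 0.0405), HEY1 (log2 -0.63, SE 0.10, adjusted p = 0.00147) and DLL1 (log2 -0.57, SE 0.13, adjusted p = 0.0143), where 5.91% of genes fell and 5.37% rose. The HES1 call was lost without any of 10 of the 15 libraries, each PBS and Acute 1 h library among them (up to 0.146), and that of DLL1 without the first or the third Acute 1 h or the second or the third Chronic 1 h library (up to 0.0598). In the fits of all groups, HES1 and HEY1 were thus lower after repeated than after single dosing at either concentration. Of these calls, only that of HEY1 at 1 mM passed under every alternative, and acute and chronic cultures differed in age. Within a concentration, the acute and chronic groups share the PBS libraries.

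The first 1 mM Acute 24 h library entered the estimate of spread that all these tests share. Without it, 20 calls were made among the members against PBS at 1 mM in place of 8, while the background rose as well. At Acute 1 h, NOTCH1 (88.8, 92.0 and 91.3 TPM in PBS against 70.6, 57.8 and 57.1, log2 -0.50, adjusted p = 0.00468) and DLL3 (log2 -0.58, adjusted p = 0.005) were then lower beside HES5, where 19.9% of genes fell and 19.9% rose. At Chronic 1 h, DLL1 was higher and HES1, HES5, HES6, HEY1 and HEY2 were lower (9.25% and 9.10% of genes), and at Chronic 24 h HES1, HES4, HES5, HES6, HEY1 and DLL1 were lower (5.42%; 3.06% of genes rose). At Acute 24 h itself, DLL1 was still higher and HES4 and DLL3 still lower (11.1% and 11.1%). Between Chronic 1 h and Acute 1 h, 7 members then differed in place of 3: HES1, HES5, HES6, HEY1, HEY2 and DLL1 were lower in Chronic 1 h (16.6% of genes) and NOTCH1 was higher (17.4%). This fit was added after the data had been seen.

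**Figure D3:**
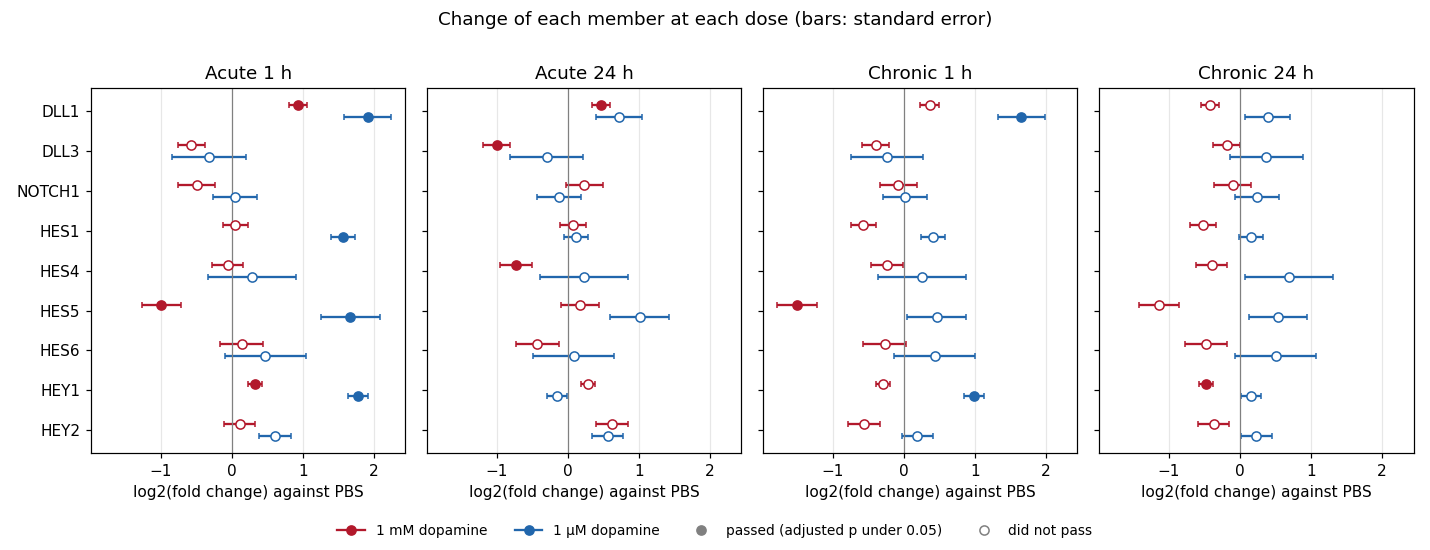
Change of the 9 members tested at both doses (log2 fold change against the PBS libraries of the same dose; bars are the SE) 1 and 24 h after acute and after chronic dosing, red for 1 mM and blue for 1 µM, filled where the edgeR adjusted p was below 0.05. At Acute 1 h the blue points of HES1, HES5 and HEY1 lie well above the red ones, which for HES5 lie below 0.

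The responses to the 2 concentrations differed for HES1, HES5 and HEY1. For the other repressor genes HES4, HES6, HEY2 and HEYL, this difference between concentrations passed in no condition by edgeR. At Acute 1 h, the log2 change at 1 mM minus that at 1 µM was -1.50 for HES1 (SE 0.25, adjusted p = 0.00145), -2.65 for HES5 (SE 0.53, adjusted p = 0.00742) and -1.41 for HEY1 (SE 0.17, adjusted p = 3.83e-05), where 0.919% of the 18390 genes tested had a difference in this direction and 1.09% in the other. For HES5 the changes were of opposite sign, a fall at 1 mM and a rise at 1 µM. For DLL1, which rose at both, the difference did not pass (-0.97, SE 0.37, adjusted p = 0.194). At Chronic 1 h, the difference of HEY1 passed (-1.30, SE 0.17, adjusted p = 0.000427; 0.0218% of genes in this direction, 0.0653% in the other) and that of DLL1 did not (-1.31, SE 0.37, adjusted p = 0.215). At 24 h no difference passed by edgeR, after acute dosing (0.484% of genes with a difference above 0 and 0.179% below) or chronic dosing (0.00% and 0.0109%); at an unadjusted p below 0.05 there were 1 and 4 members, and DESeq2 called 0 and 1, the latter being HEY1. Without the 3 libraries of steep GC slope and the first 1 mM Acute 24 h library, a choice made after the data had been seen that leaves 2 libraries in 4 groups, 11 differences passed in place of 4, and all 11 were below 0. DLL1 then passed beside HES1, HES5 and HEY1 at Acute 1 h (-1.10, adjusted p = 0.000388; 4.53% of genes below 0 and 4.92% above). At Chronic 1 h, DLL1 (-1.34, adjusted p = 0.000183), HES1 (-1.15, adjusted p = 0.00108) and HES5 (-2.04, adjusted p = 0.00133) passed beside HEY1 (1.99% below and 1.26% above), and HES1 passed there without the first 1 mM Acute 24 h library alone (adjusted p = 0.0209). At Chronic 24 h, HES5 (-1.41, adjusted p = 0.0245), HES1 (-0.71, adjusted p = 0.0407) and HEY1 (-0.58, adjusted p = 0.0461) passed (1.36% below and 0.380% above), and at Acute 24 h no member did (1.27% below and 1.77% above; 2 members had an unadjusted p below 0.05, HES5 and HEY1). The concentrations were run as separate experiments with their own cultures and PBS libraries, whose member levels differed, so concentration and experiment cannot be told apart. The immediate early genes FOS, EGR1 and FOSB, which mark recent stimulation, rose at Acute 1 h at both concentrations (log2 3.98, 5.01 and 6.77 at 1 mM and 3.53, 4.34 and 4.39 at 1 µM), and none of the 3 differences between concentrations passed at that time by edgeR; FOSB had an unadjusted p below 0.05 and was called by DESeq2.

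In the time course, HES1 was higher after each number of days of 1 mM dopamine, and HEY2 and HES5 were lower after some. HES1 was at 112, 108 and 110.2 TPM in the AA controls and at 193, 202 and 193 TPM on 2 Day, 191, 183 and 180.1 TPM on 3 Day, 189.8, 202 and 220.4 TPM on 4 Day, and 139 and 208 TPM in the 2 libraries of 5 Day. Each of the 11 dosed libraries was above each control. The log2 fold changes were 0.97 (SE 0.08, adjusted p = 5.55e-06), 0.85 (SE 0.08, adjusted p = 1.97e-05), 0.92 (SE 0.08, adjusted p = 7.06e-06) and 0.77 (SE 0.09, adjusted p = 0.000241), that is 1.70-fold to 1.96-fold. The 4 comparisons share the AA libraries, and HES1 was 1 of 10 members higher on each day, beside 1.89%, 4.77%, 2.58% and 1.23% of the 16768 genes tested.

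HEY2, a repressor related to HEY1, was at 12.2, 12.2 and 8.98 TPM in the AA controls and at 5.39, 5.11 and 5.53 TPM on 3 Day (log2 -0.95, SE 0.16, adjusted p = 0.00262). It was at 6.64, 7.36 and 6.57 TPM on 4 Day (log2 -0.66, SE 0.16, adjusted p = 0.0267), again below all controls. HES5 was at 56.4, 46.0 and 40.8 TPM in AA and at 30.8, 23.8 and 17.3 TPM on 3 Day (log2 -0.89, SE 0.25, adjusted p = 0.0415). On 2 Day it was at 54.2, 62.8 and 89.4 TPM, where the groups overlapped and the difference did not pass (log2 0.67, SE 0.23, adjusted p = 0.113). DLL1 had its lowest group mean on 3 Day as well, at 29.4 to 31.3 TPM against 36.1 to 42.4 in AA, but did not pass (log2 -0.31, SE 0.15, adjusted p = 0.228). Lower on 3 Day were 2 of 10 members, beside 2.60% of genes, and on 4 Day 1 of 10, beside 1.80%; none was lower on 2 Day (1.99%) or 5 Day (0.406%) by edgeR, where HEY2 on 2 Day and HES6 on 5 Day had an unadjusted p below 0.05 and DESeq2 called HES6. The HES5 call was lost when reads over whole genes were used (adjusted p = 0.0649) and when any AA library, the second or the third 3 Day library or the second 4 Day library was left out (up to 0.168), and the 4 Day call of HEY2 under the former (0.0871) and without any 4 Day library or either of the first 2 AA libraries (up to 0.119).

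**Figure D4:**
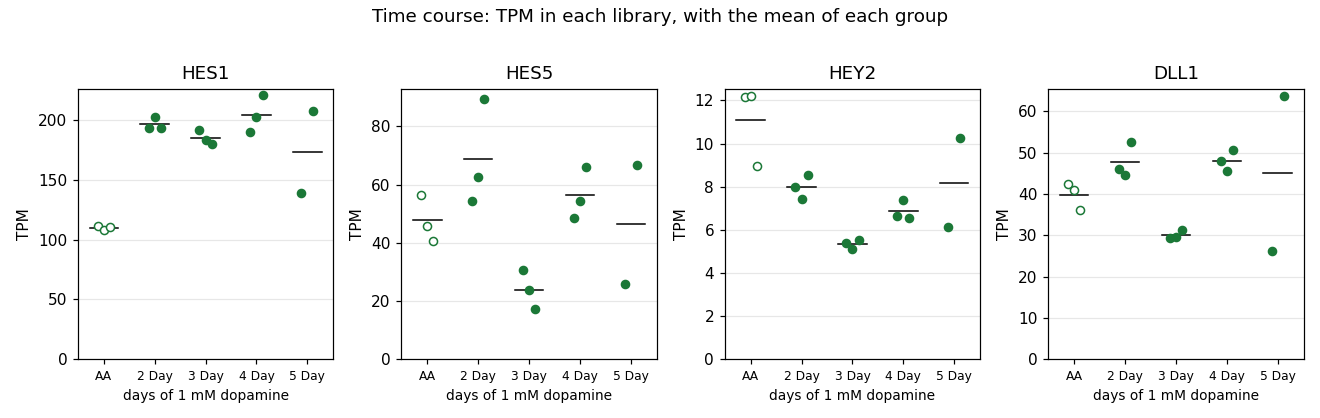
Level of HES1, HES5, HEY2 and DLL1 (TPM, axes from 0) in the AA control and on 2, 3, 4 and 5 Day of daily 1 mM dopamine; points are libraries and bars group means. HES1 lay between 139 and 220.4 TPM on all dosed days against 108 to 112 TPM in AA, while the group means of HES5, HEY2 and DLL1 were lowest on 3 Day.

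Daily doses of 1 mM over 5 days with RNA taken 1 h after the last were thus given in both experiments, as Chronic 1 h against PBS and as 5 Day against AA, and HES1 stood on opposite sides of its controls. It was at 118, 154.5 and 114 TPM in Chronic 1 h, below every PBS library (168 to 209.8 TPM), and at 139 and 208 TPM in 5 Day, above every AA library (108 to 112 TPM). The log2 change in Chronic 1 h minus that in 5 Day was -1.33 (SE 0.21, edgeR adjusted p = 0.00265), in a fit of both experiments made after the values had been seen, where 0.441% of the 18349 genes had a difference in this direction and 0.223% in the other. The treated levels overlapped and the controls did not. HES5 differed in the same direction without passing (-1.53, SE 0.42, adjusted p = 0.0834; 0.00493 without the first 1 mM Acute 24 h library), and the other 8 members did not pass. The experiments differ in the control solution and in all that separates their cultures, which cannot be told apart.

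Cell type markers moved on 3 Day too, and not on 3 Day alone. The progenitor markers SOX2, MKI67 and TOP2A were lower and NES higher, 3 of 5 astrocyte markers (GFAP, S100B and GJA1) and 3 of 5 mesenchymal markers (COL1A1, COL1A2 and COL3A1) were higher, as were the mural markers PDGFRB and RGS5. Over the whole lists, the summed level was 1571 to 1700 TPM against 1801 to 1913 in AA for the 8 progenitor markers, 245 to 294 against 161.5 to 209.3 for the 5 astrocyte markers and 255 to 443.5 against 167 to 223 for the 5 mesenchymal markers. On 4 Day, where HES5 did not pass, these sums were 1584 to 1680, 238 to 250 and 320.5 to 351 TPM. SOX2, COL1A2 and COL3A1 passed in the same direction on 2, 4 and 5 Day. The sum of the 7 striatal markers was 88.6 to 93.8 TPM on 3 Day and 78.2 to 93.6 on 4 Day, against 108 to 117 in AA. At 1 mM Acute 1 h, where HES5 also fell, the astrocyte sum was 344 to 399 TPM against 169 to 179.7 in PBS. GJA1 was the only astrocyte marker to pass there, higher (log2 1.30). The astrocyte markers did not move together: from Acute 1 h to Chronic 1 h, GJA1 was lower (log2 -1.19) and GFAP higher (log2 2.35). At Acute 1 h the progenitor marker SLC1A3 and the neuron markers RBFOX3 and SYT1 were lower, and the mural genes RGS5 and KCNJ8 rose. The progenitor sum was 1820 to 1913 TPM at Acute 1 h against 1696 to 1815 in PBS. At 1 µM Acute 1 h, where HES5 rose, the astrocyte sum was 73.0 to 85.3 against 67.3 to 81.8 TPM and the progenitor sum 1916 to 2253 against 2006 to 2236 TPM, with NES as the only progenitor marker to pass, higher. The part of these markers in the results on the members was not tested.

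The receptor agonists gave no change of a member that passed, in a fit that included the nearly empty quinpirole library. By edgeR, 0 of 9 members passed for SKF82958 (0.0124% of the 16132 genes rose and 0.00% fell) and for quinpirole (0.00% each way), and no member had an unadjusted p below 0.05. DESeq2 called 0 members as well, while it called 0.017% of genes higher for SKF82958 and 3.47% for quinpirole. HES1 nevertheless lay higher in each SKF82958 library, at 189, 178 and 212 TPM against 107.5, 122 and 126 TPM in water (log2 0.62, SE 0.41). In the 2 full quinpirole libraries it was at 149 and 159 TPM. Without the nearly empty library HES1 passed for SKF82958 (log2 0.62, SE 0.08, adjusted p = 0.000979, where 0.612% of genes rose and 0.0122% fell) and not for quinpirole (log2 0.43, SE 0.09, adjusted p = 0.144; 0.184% and 0.00%). The other 8 members tested had log2 fold changes from -0.26 to 0.40 for SKF82958 in that fit, and none passed. The water controls differed from the other controls in FOS, which was at 204 to 279.6 TPM in water and at 6.20 to 19.1 TPM in the other 9 control libraries. FOS, EGR1 and FOSB did not pass for either agonist with all libraries by edgeR or DESeq2, where FOSB had an unadjusted p below 0.05 for both. Without the nearly empty library all 3 were higher for both, with log2 fold changes of 0.48, 0.65 and 1.35 for SKF82958 (adjusted p = 0.0477, 0.0132 and 3.67e-05) and 0.78, 0.89 and 1.39 for quinpirole (adjusted p = 0.00474, 0.00372 and 0.000156).

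Among 38 tested genes of a list of 39 other Notch pathway genes (receptors, ligands, enzymes that modify or cut the receptor, and nuclear partners), between 0 and 9 passed in each comparison. At 1 µM Acute 1 h, 3 rose and 0 fell, beside 3.25% and 2.52% of all genes: NRARP, a target gene whose product dampens Notch signalling (log2 1.71, SE 0.19, adjusted p = 9.31e-05), LFNG, a glycosyltransferase that tunes the receptor's choice of ligand (log2 1.80, SE 0.47, adjusted p = 0.0363), and POGLUT1, which adds glucose to the receptor (log2 1.15, SE 0.21, adjusted p = 0.00548). The median of the list was -0.07 against 0.02 over all genes. NRARP (log2 0.87, adjusted p = 0.0228) and POGLUT1 (log2 1.12, adjusted p = 0.0118) were also higher at 1 µM Chronic 1 h, and at Acute 1 h both had a smaller change at 1 mM than at 1 µM (differences -1.28, adjusted p = 0.00303, and -1.19, adjusted p = 0.0327), as HES1, HES5 and HEY1 had. RBPJ, the DNA-binding partner of the cut receptor, was lower at 1 µM Acute 24 h (log2 -0.66, adjusted p = 0.0472).

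At 1 mM Acute 1 h, 4 of the 38 rose and 5 fell, where 8.04% and 7.94% of all genes did, among them the ligand gene JAG2 (log2 -0.67, adjusted p = 0.000836), NUMB, an inhibitor of the receptor (log2 -0.41, adjusted p = 0.0159), and APH1A, a subunit of the protease that cuts it (log2 0.42, adjusted p = 0.00301). At Acute 24 h, 4 rose and 3 fell, where 8.38% and 7.09% of all genes did, with JAG2 again lower (log2 -0.51, adjusted p = 0.00632), and at Chronic 1 h the sheddase gene ADAM10 fell (log2 -0.30, adjusted p = 0.0347). In the time course the ligand gene JAG1 rose on 3, 4 and 5 Day (log2 0.77, 0.49 and 0.60, adjusted p = 0.000546, 0.0167 and 0.0189), and on 3 Day NOTCH3 (log2 0.47, adjusted p = 0.0156) and PSEN2 (log2 0.54, adjusted p = 0.00861) as well. None passed at 1 mM Chronic 24 h, 1 µM Chronic 24 h, 2 Day or for either agonist by edgeR, where 7, 2, 10, 0 (SKF82958) and 1 (quinpirole) had an unadjusted p below 0.05 and DESeq2 called 1, 0, 1, 0 and 0.

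Proneural genes, which HES proteins are known to repress, and ID genes were counted in the same way. Of 11 proneural and ID genes, 10 were tested at 1 µM. At Acute 1 h 6 rose and 0 fell, beside 3.25% and 2.52% of all genes. The list median was 1.43 against 0.02 over all genes. The 6 were the proneural genes NEUROG1 (log2 2.00, SE 0.27, adjusted p = 0.00057) and NEUROD4, and ID1, ID2 (log2 1.53, SE 0.15, adjusted p = 4.25e-05), ID3 and ID4 (log2 1.33, SE 0.14, adjusted p = 7.18e-05). The products of the ID genes bind and disable bHLH factors. At 1 µM Chronic 1 h, NEUROG1 was again higher (log2 1.64, adjusted p = 0.00478), where 1.75% of all genes rose. At 1 mM Acute 1 h, ID1, ID3 (log2 2.15, adjusted p = 2.43e-05) and ID4 rose while NEUROD2 (log2 -0.97, adjusted p = 0.0014) fell, where 8.04% of all genes rose and 7.94% fell. On 2, 3, 4 and 5 Day, when HES1 was higher, ID1 and ID3 were higher each time, where 1.89%, 4.77%, 2.58% and 1.23% of all genes rose. The proneural gene NEUROG2 was lower on 3 Day (log2 -0.83, SE 0.12, edgeR adjusted p = 0.000992), where 2.60% of all genes fell.

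Genes whose levels varied most like those of the members were looked for over 13107 genes, as Pearson's r of log2(TPM + 1) centred within each experiment, given as a description since libraries share group, depth and base composition. Over the 52 libraries other than the nearly empty one, HES1 was most like NOG (0.82), ID1 (0.80) and IER5L (0.79), HEY1 most like NRARP (0.88), TFAP2C (0.81) and DLL1 (0.80), and HES5 most like NOG (0.80), ULK2 (0.78) and PBX2 (0.77). With all 53 libraries the leading genes were UNCX (0.76) for HES1, NOG (0.80) for HEY1 and PLPP3 (0.84) for HES5. Between members, HES6 and HES4, the most GC-rich of them, were the most alike over the 52 libraries (0.91), and DLL3 and HES4 reached 0.85.

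Reads in introns, which come largely from unspliced RNA, had shares that did not overlap between treated and control groups for several members. How many of all genes had such shares was not counted, so the values of some members are given as a description only. Without a stated strand setting, reads from an antisense gene cannot be told apart from them. HEY2 had 29.5% to 43.6% of its gene reads in introns in 1 mM PBS (76 to 169 reads) and 21.4% to 22.6% in Acute 1 h (54 to 63 reads), and 38.5% to 58.0% in 1 µM PBS against 16.4% to 20.9% in Acute 24 h. The share over all genes was 19.5% to 21.8% in 1 mM PBS and 12.3% to 13.2% in Acute 1 h, and 22.3% to 23.6% in 1 µM PBS and 19.7% to 20.5% in Acute 24 h, so it moved the same way in both, and its part was not tested. DLL1 had 17.5% to 20.4% in 1 mM PBS and 11.9% to 13.6% in Acute 1 h. DLL3 went the other way at 1 µM, with 2.88% to 6.88% in PBS (6 to 22 reads) and 24.3% to 57.1% in Acute 1 h (44 to 67 reads), while the share over all genes was 22.3% to 23.6% and 20.2% to 31.2%. Its exon reads did not change beyond their error there (42.3, 14 and 31.1 TPM against 29.2, 5.07 and 36.3 TPM). At 1 µM, HEY1 (0% to 2.82% against 5.03% to 6.60%) and NOTCH1 (8.34% to 9.20% against 12.1% to 16.4%) also had higher shares in Acute 1 h than in PBS. These genes were picked after their values had been seen.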

How the data were processed

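RNA was sequenced from 53 libraries, 3 per group but 2 for 5 Day, whose remaining sample was not analysed here. The authors mapped reads to GRCh38 with Ensembl 102 in CLC Genomics Workbench 21.0.5 and deposited, for each library and gene, counts of exon, intron and gene reads and the TPM they computed from exon reads. The strand setting is not given in the sources used here. Exon reads came to 5755919 to 27702963 per library, apart from 137051 in 1 quinpirole library, and low counts limit what can be tested.

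From the exon counts, edgeR 4.0.16 (R 4.3.3) was used: genes were kept by filterByExpr (minimum count 10, minimum total 15), scaled by TMM and fitted with the quasi-likelihood model, with all groups of an experiment in 1 fit, and p-values were adjusted by Benjamini-Hochberg over all genes tested; a gene passed at an adjusted p below 0.05. Fold changes, SE and adjusted p-values throughout are from this fit unless DESeq2 (1.42.0) is named. Differences between concentrations, and between the 1 mM experiment and the time course, came from 1 fit of both experiments. TPM were used for levels only, and whether the TPM of groups overlapped was not counted over all genes. Nothing in the labels says that libraries of a group came from separate differentiations, so p-values measure the spread between libraries, which may be technical. The members and all gene lists were chosen with earlier results of these data known. The genes named beside the members were the 3 with the lowest adjusted p of a list in a comparison, and for likeness those with the highest correlation. The GC slope of a library was the fitted log2 change per 10 percentage points of gene GC content over genes with a mean of at least 5 TPM. The results of 1 gene of these lists are not reported here. Scripts were tested on simulated counts with 200 genes changed 2-fold in 1 group. Of these, 52% were found with the 1 mM settings, 31% with 1 µM, 75% with the time course and 73.5% with the agonists without the nearly empty library. A gene that did not pass may therefore still have changed. Alternatives were other read types, DESeq2 size factors and test, no filter, a replicate block, fits of only 2 groups and each library left out; the GC covariate, the comparison of the 1 mM experiment with the time course and the fits without several libraries were added after seeing the data.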

Additional observations from a re-analysis of the deposited data

Results flagged for a closer look

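The change against PBS differed between 1 mM and 1 µM dopamine, by the test of the difference itself, for 3 members at Acute 1 h and 1 at Chronic 1 h. The log2 change at 1 mM minus that at 1 µM was -1.50 for HES1 (SE 0.25, adjusted p = 0.00145), -2.65 for HES5 (SE 0.53, adjusted p = 0.00742) and -1.41 for HEY1 (SE 0.17, adjusted p = 3.83e-05) at Acute 1 h, and -1.30 for HEY1 (SE 0.17, adjusted p = 0.000427) at Chronic 1 h, all from edgeR. Each of these 4 passed under every alternative run for it. In TPM, every 1 µM Acute 1 h library of these genes was above every 1 µM PBS library, whereas at 1 mM the HES1 groups overlapped, those of HEY1 were apart by a smaller rise and every Acute 1 h library of HES5 was below every PBS library. Concentration and experiment cannot be told apart here. The change of HES1 after 5 daily doses of 1 mM also differed between the 1 mM experiment (Chronic 1 h against PBS) and the time course (5 Day against AA), by -1.33 on the log2 scale (SE 0.21, edgeR adjusted p = 0.00265). It was -0.57 in the former, which did not pass on its own, and 0.77 in the latter. Leaving out 1 library of the groups compared, or of 1 mM Acute 24 h, gave -1.48 to -1.24 with adjusted p up to 0.016. This comparison was made after the values had been seen. Groups of 3 are too small for the search for single samples far from the others that larger groups allow.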

How the results depend on the processing

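At 1 mM, 8 member calls were made over the 4 comparisons against PBS, to which the 3 between Chronic 1 h and Acute 1 h are not added here. Fits of only the 2 groups compared gave 17, as did the GC covariate, added after seeing the data, and the other alternatives gave 6 to 12. Leaving out 1 library gave 2 to 20 calls: 2 to 5 without any single PBS, Acute 1 h or Chronic 1 h library, and 20 without the first Acute 24 h library. At 1 µM, 6 calls against PBS became 2 with only the 2 groups compared (HES1 and HEY1 at Acute 1 h) and 13 with the GC covariate, and 4 to 6 when 1 library was left out. In the time course, 7 calls became 13 with no filter and 13 with only the 2 groups compared, and 5 to 13 when 1 library was left out (12 or 13 without either 5 Day library). For the agonists, 0 calls became 1 with only the 2 groups compared, and 0 to 1 when 1 library was left out (1 without the first quinpirole library), and DESeq2 gave 0. Between concentrations, 4 calls became 7 by DESeq2, 8 with the GC covariate and 11 without the 3 1 µM libraries of steep GC slope and the first 1 mM Acute 24 h library, the last 2 added after seeing the data. The cause of these shifts was not tested.

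Of 743 alternative values of the 30 called results, 628 kept direction and side of the threshold, 115 no longer passed and 0 turned direction. The 13 results that passed under every alternative were HES1 on each day of the time course, HEY2 on 3 Day, HES1 and HEY1 at 1 µM Acute 1 h, DLL1 at 1 mM Acute 1 h, HEY1 between Chronic 1 h and Acute 1 h at 1 mM, and the 4 differences between concentrations. Apart from these, the difference of HES1 between the 1 mM experiment and the time course passed without each of 14 libraries (-1.48 to -1.24), and no other alternative was run for it. Besides single libraries, reads over whole genes lost HES4 at 1 mM Acute 24 h (adjusted p = 0.0877), HEY1 at 1 mM Chronic 24 h (0.191), and both Chronic 1 h against Acute 1 h calls at 1 µM (0.101 for HES1 and 0.201 for HEY1), by edgeR.

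A fit with the replicate number as a replicate block gave 6, 6, 7, 0 and 4 calls in place of 8, 6, 7, 0 and 4, and lost HES4 at 1 mM Acute 24 h (edgeR adjusted p = 0.0543) and HEY1 at 1 mM Chronic 24 h (0.0706). The libraries share only a number: the lowest correlation of deviations between same-numbered libraries was -0.192, -0.301, -0.181 and -0.151 in the 1 mM, 1 µM, time course and agonist experiments, and 4 of 15, 6 of 15, 4 of 14 and 3 of 8 libraries correlated best with their own number.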
